A study of Bos taurus with 12 samples.

Results

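The N6-methyladenosine (m6A) map of germinal vesicle (GV) oocytes of cattle is described here from the authors' peak list, in which immunoprecipitated (IP) RNA was set against input RNA. Every peak deposited for the GV stage was taken, 14222 of the 36520 peaks listed for the series' stages together. Each peak was joined by gene identifier to the abundance of its gene in the GV input libraries, in FPKM (fragments per kilobase of transcript, scaled to library size). The peaks fell in 6705 genes, of which 20 genes with 21 peaks had no row in the abundance table.

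The study profiled bovine (Bos taurus) oocytes cultured in vitro, at the GV stage and at metaphase II, by m6A immunoprecipitation followed by sequencing. The groups used here were 3 GV IP libraries, enriched with an antibody against m6A, and 3 GV input libraries made from the same kind of fragmented RNA without that enrichment. The labels give no treatment, genotype, breed or animal age for either group, and they do not say whether the libraries came from separate animals or cultures, or how many oocytes were pooled. The RNA was selected for poly(A) tails before fragmentation, and the libraries kept the strand of the RNA.

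m6A is placed on mRNA in the nucleus by a writer complex built around METTL3 and METTL14, removed by FTO and ALKBH5, and bound by readers such as the YTH domain proteins. In many mammalian tissues it is found most often in long exons and around stop codons, and readers connect it to splicing, translation and decay of the transcript. A GV oocyte is arrested in the first meiotic prophase with a large store of maternal mRNA, which is later translated or degraded with little new transcription.

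The input libraries carried the markers of oocytes. All 15 oocyte markers were listed, none of them at 0, and their summed abundance was 2902, 2845 and 2893 FPKM in GV input libraries 1, 2 and 3. Of 29 markers of cumulus and granulosa cells, which surround the oocyte, 17 had a row: 3 of these were at 0, 9 reached 1 FPKM, and the sum was 255, 264 and 252 FPKM. STAR, a cholesterol transporter of steroid-making cells, gave most of that sum with 143, 157 and 147 FPKM, whereas the granulosa receptor FSHR averaged 0.0736 FPKM. Of 12 markers of theca, blood and immune cells, 7 had a row, 4 of them at 0, with sums of 31.2, 32.7 and 33.1 FPKM. The part of somatic cells in the peak list was not tested, and in bulk libraries fewer cells of a type and less RNA per cell cannot be told apart. Abundance agreed closely between the input libraries: over the genes described below, the Spearman correlations of the 3 pairs were 0.984, 0.984 and 0.986, and the median coefficient of variation of a gene was 8.19%.

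Most of the analysis concerns the 11288 genes that averaged 1 FPKM or more in the GV input libraries, which held 13601 of the peaks. Of these genes 6198 carried at least 1 peak, or 54.9%, and 5090 carried none. Counting only peaks with a false discovery rate (FDR) below 0.05 in the authors' deposited table, 5192 genes carried one, or 46.0%. All peaks come from 1 list for the stage with no value per IP library, so a peak has no replicate error here. The intervals given for shares are exact 95% binomial intervals, which cover counting error only, and the p and FDR of a peak are the authors' own.

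Genes with a peak were more abundant and spanned more of the genome than genes without one. Their median abundance was 14.9 FPKM (quartiles 6.03 and 35.9), against 6.83 FPKM (2.67 and 20.3) for genes without a peak. Their median span from gene start to gene end, introns included, was 31.5 kb (12 and 79.9), against 12.5 kb (3.24 and 35.2). The abundance of genes with a peak also varied less between libraries, with a median coefficient of variation of 6.38% against 11.4%. Across the 11288 genes, the number of peaks had a Spearman correlation of 0.26 with abundance and of 0.35 with span, while abundance and span themselves had one of 0.06. Genes are not independent replicates and share the same libraries, so these values are descriptions.

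The share of genes with a peak climbed over the lower deciles of abundance and then levelled. It was 26.8% in the lowest decile (up to 1.93 FPKM, interval 24.3 to 29.5), 55.1% in the fifth and 65.3% in the sixth. The highest share, 70.4% (67.7 to 73.1), was in the ninth decile, and the decile of the most abundant genes, from 65.3 FPKM upward, stood at 64.4% (61.5 to 67.2). Over span the climb continued to the ninth decile. The share was 15.8% (13.7 to 18.0) among the shortest genes, up to 1.60 kb, of which 46.1% were protein coding, then 44.0% in the second decile, 73.8% in the ninth and 72.8% (70.1 to 75.4) among genes above 131 kb. The highest abundance decile exceeded the lowest by 37.5 percentage points. This gap was 52.0 with peaks of FDR below 0.05 and 48.1 among genes above 0 in all 3 input libraries. It was 11.2 when peaks of log2 enrichment of at least 2 were counted and 10.3 among genes of at least 5 FPKM. Deciles were formed anew in each set of genes, and the low edge of listed enrichment differed between deciles, as described below. The longest decile of span exceeded the shortest by 57.0 points, and by 36.8 among protein-coding genes alone.

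**Figure D1:**
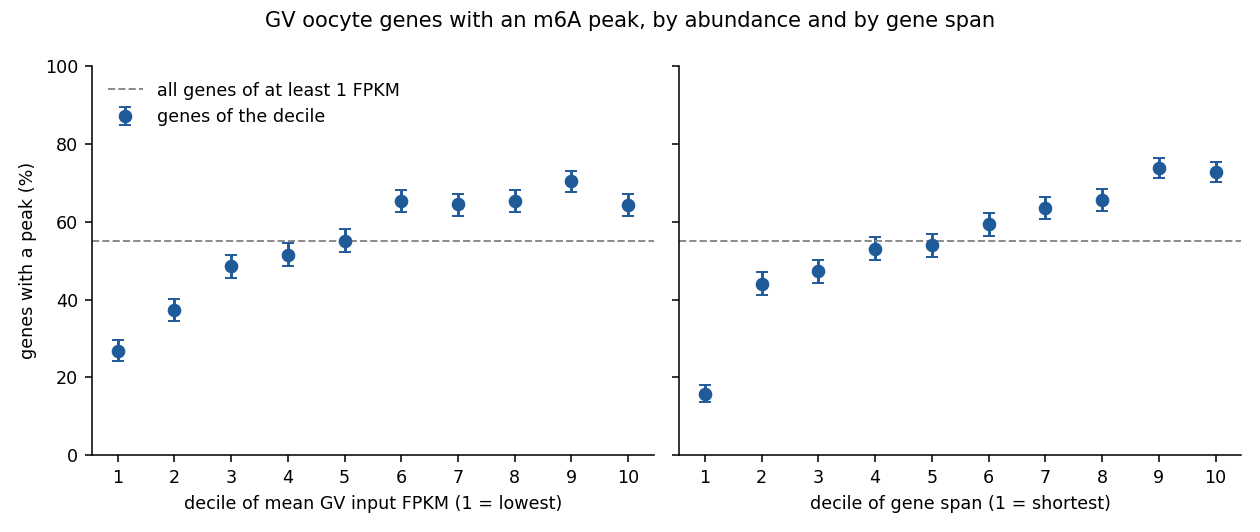
Share of genes with at least 1 m6A peak (%, vertical axis) in each decile of mean GV input abundance (left) and of gene span (right), for the 11288 genes of at least 1 FPKM. Points are shares, bars are exact 95% binomial intervals and the dashed line is the 54.9% of all these genes; the share levels between 64.4% and 70.4% from the sixth abundance decile on, and reaches 73.8% in the ninth span decile.

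Both gradients held within each other. Among the least abundant tercile of genes, 26.3% of the shortest tercile and 52.6% of the longest tercile carried a peak. Among the most abundant tercile, these shares were 45.1% and 82.7%. Long genes of high abundance also held most peaks per gene, 2.41 on average, compared with 0.404 for short genes of low abundance. Because FPKM is scaled by transcript length and span includes introns, neither measure gives the length of exonic sequence in which a peak could be called.

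The ends of these distributions show how far a gene can stand from the gradient. The longest genes of at least 10 FPKM without a peak were IMMP2L, a mitochondrial inner membrane peptidase subunit that spans 913 kb, ULK4 (522 kb), SBF2 (498 kb), the cell-surface proteoglycan GPC3 (463 kb) and LTBP1 (457 kb), which binds latent TGF-beta. IMMP2L had 31.0, 31.0 and 32.9 FPKM in GV input libraries 1, 2 and 3, so its mRNA was well covered by the abundance table and lacked a listed peak. The shortest with a peak were a U5 small nuclear RNA (0.116 kb, log2 enrichment 1.74), SMIM15 (0.225 kb, 1.20), RPL36AL (0.321 kb, 2.37), a locus annotated PTMA (0.330 kb, 2.00) and C10H14orf119 (0.429 kb, 1.78). Each of these short genes carried 1 peak. That of U5 did not reach an FDR below 0.05, and neither did any peak of the 298 spliceosomal, nucleolar and Cajal body small RNAs.

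Peaks were nearly absent from small non-coding RNAs. Of protein-coding genes, 6134 of 10543 carried a peak, or 58.2%, and of long non-coding RNAs 38 of 124, or 30.6% (interval 22.7 to 39.6). None of 193 small nucleolar RNAs carried one, which allows a share of up to 1.89%, nor did any of 44 ribosomal RNA loci, 31 microRNA loci or 22 mitochondrial tRNAs. Their median spans were 0.111, 0.119, 0.076 and 0.069 kb in that order, while the lower quartile of peak extent was 181 bases. The libraries were also selected for poly(A) tails. The part of short span and of that selection in these shares was not tested. Both mitochondrial ribosomal RNAs carried 1 peak each, with log2 enrichments of 0.49 and 1.01. The most abundant rows without a peak were of this kind: a 5.8S ribosomal RNA locus averaged 81453 ± 690 FPKM (SD, n = 3 libraries), and copies of 5S ribosomal RNA and of the signal recognition particle RNA followed. Reads of such near-identical copies could have been divided among loci by the authors' counting, so these levels are uncertain. Between chromosomes the share ran between 43.0% on chromosome 29 (133 of 309 genes) and 65.5% on chromosome 28 (112 of 171), and it was 27.0% of 37 genes on the mitochondrial genome, 22 of them tRNAs. The median gene span was 11.5 kb on chromosome 29 and 37.3 kb on chromosome 28, with median levels of 8.76 and 11.8 FPKM. The part of span and abundance in that difference was not tested.

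A smaller set of peaks lay in genes that the input barely showed. Of 5387 genes below 1 FPKM, 487 carried 600 peaks, a share of 9.04% (interval 8.29 to 9.84). Among them were 192 genes listed at 0 in all 3 input libraries, of 3351 such genes in the table, with 207 peaks. Their median log2 enrichment was 2.82 and 67 of them had an FDR below 0.05. The named gene with the highest peak in this group was SHLD3, a part of the shieldin complex of DNA repair, at 4.91, followed by ELOA, an elongin subunit, at 4.56; both were picked after their values were seen. An exact 0 in a table without counts can be a failed estimate, so these genes are only described as listed at 0.

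The share of genes with a peak differed widely between functional groups. Of 26 gene lists with members above the minimum, 17 had a higher share of genes with a peak than the 54.9% of all genes, 8 of them with an interval wholly above it, and 7 lists had an interval wholly below it. Since lists differ in abundance and span, each share is also given beside that of all genes in the same decile of abundance and tercile of span. By that measure 15 of the 26 lists were higher. The shortest tercile reaches 10.7 kb, so lists of much shorter genes are matched only coarsely for span. Counting only peaks of log2 enrichment of at least 2, 12 lists stood above all genes. Shares at that setting are set beside all genes with no match for abundance, although enrichment was lower in abundant transcripts, as described below. The lists were chosen with results of these data known, and no test was made of any list.

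**Figure D2:**
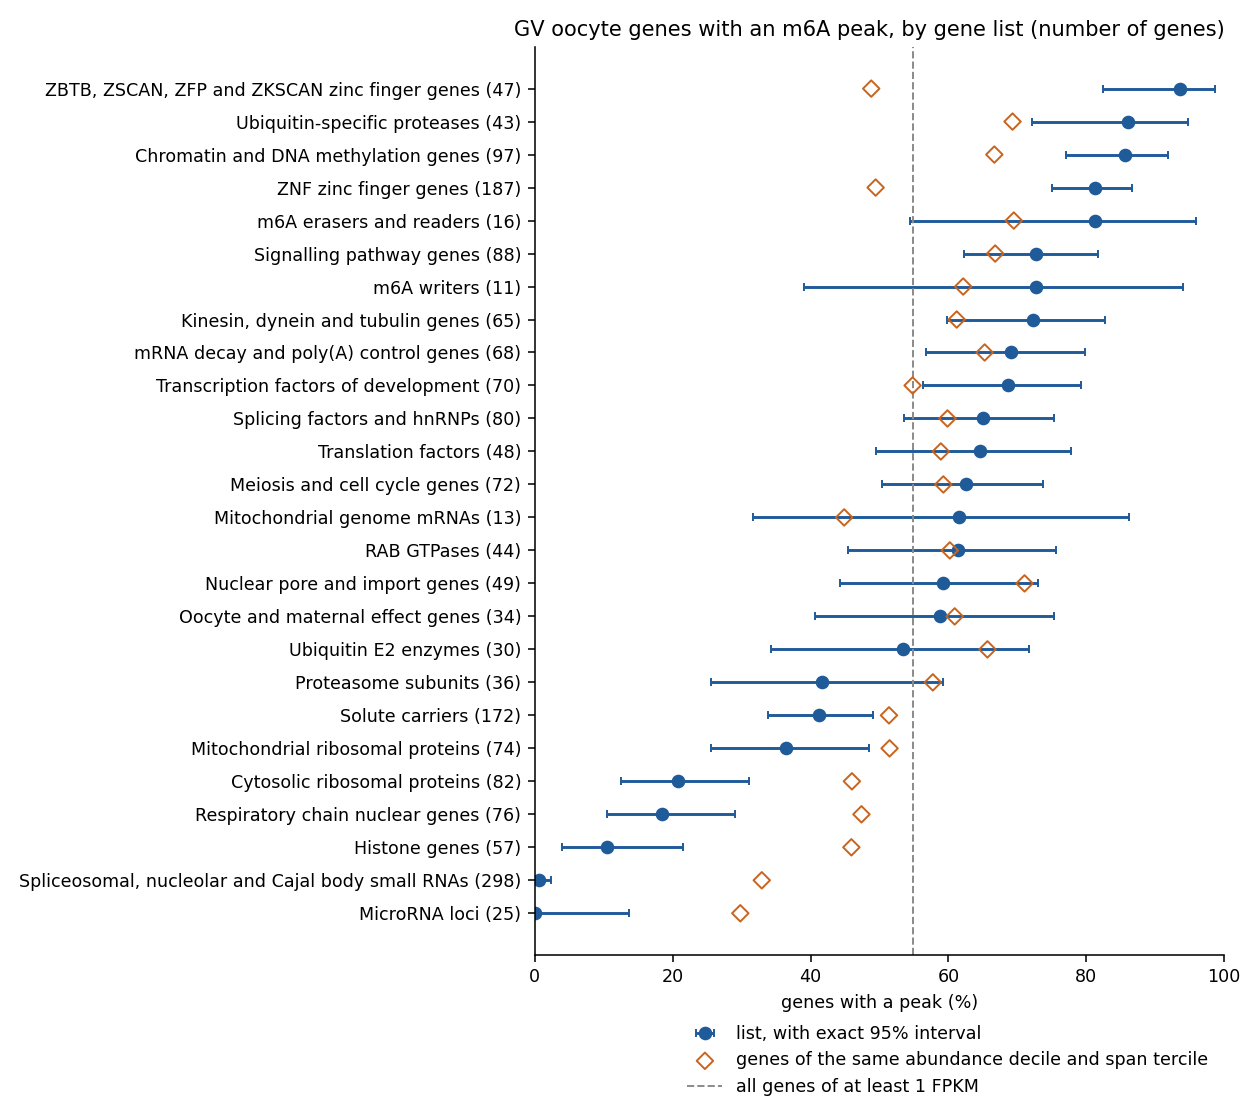
Share of genes with a peak (%, horizontal axis) in 26 gene lists, with the number of genes of at least 1 FPKM in brackets. Blue points are lists with exact 95% binomial intervals, open diamonds the share among all genes of the same abundance decile and span tercile, and the dashed line all genes (54.9%); zinc finger lists stand furthest to the right of their diamonds, and histone, nuclear respiratory chain and cytosolic ribosomal protein lists furthest to the left among lists of protein-coding genes.

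Zinc finger transcription factors exceeded genes of the same abundance and span by the widest margin of the 26 lists. Of genes named ZBTB, ZSCAN, ZFP or ZKSCAN, families of DNA-binding zinc finger regulators, 44 of 47 had a peak, or 93.6% (interval 82.5 to 98.7), against 48.8% of genes of the same abundance and span. Of ZNF genes, 152 of 187 had one, or 81.3% (74.9 to 86.6), against 49.4%. Their peaks were also more enriched, with median log2 values of 3.04 and 3.03, compared with 2.56 for the peaks of all genes of at least 1 FPKM. The gap was smaller beside the fifth abundance decile, which holds the median level of both lists and had a median of 2.82. The zinc finger genes were short and of modest abundance, with median spans of 11.3 and 12.7 kb and median levels of 8.10 and 7.80 FPKM, below the 21.8 kb and 10.9 FPKM of all genes.

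ZNF184 held the highest peak of the whole map. It had 16.6, 17.0 and 15.4 FPKM in GV input libraries 1, 2 and 3, and its peak on chromosome 23 between 31174761 and 31184529, classed at the stop codon, had a log2 enrichment of 8.11 with an FDR of 1.58e-90 in the authors' deposited table. Its other peak, of 210 bases in the 3′ UTR, reached 2.56. ZNF292 carried 11 peaks, the highest at 6.48, with 7.47, 8.09 and 7.84 FPKM. ZBTB2 carried 4, the highest at 6.52 at the stop codon, with 5.22, 4.45 and 4.07 FPKM. The most abundant ZNF gene without a peak was ZNF274, at 25.1, 26.8 and 25.5 FPKM, and the ZBTB and ZSCAN genes without one, ZSCAN30, ZBTB22 and ZSCAN25, all averaged under 3 FPKM. Zinc finger genes belong to large families of related sequence, and reads shared between copies could blur values of single members.

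Chromatin regulators also carried peaks often, and many carried several. Of 97 genes, 83 carried a peak, or 85.6% (interval 77.0 to 91.9), against 66.7% of genes of the same abundance and span, and 50 of the 97 carried at least 3. KMT2C, a histone H3 lysine 4 methyltransferase, had 61.3, 65.1 and 64.8 FPKM and 12 peaks, none above 3.63. ASH1L, a methyltransferase of H3 lysine 36, had 7.10, 6.58 and 6.73 FPKM and 11 peaks, all with an FDR below 0.05 and the highest at 6.83. The more abundant of these genes thus had the lower highest peak. DAXX, a chaperone for histone H3.3, had 8.00, 6.98 and 8.15 FPKM and 5 peaks within a 4.38 kb gene. Its highest, 624 bases long on chromosome 23 from 7488818 to 7489441, reached 7.64, whereas its other 4 peaks ranged from 1.82 to 3.32. Chromatin genes without a peak included SMARCB1, a subunit of the SWI/SNF remodeller, at 51.9, 48.9 and 53.9 FPKM, and the histone deacetylases HDAC3 and HDAC2.

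Ubiquitin-specific proteases, which remove ubiquitin from proteins, carried peaks in 37 of 43 genes, or 86.0% (72.1 to 94.7), against 69.3% of genes of the same abundance and span. Their highest was in USP35, at 6.32, and USP9X carried 7 peaks of at most 2.71. Ubiquitin-conjugating E2 enzymes, which work in the opposite direction, carried peaks in 16 of 30 genes, or 53.3% (34.3 to 71.7), against 65.6%. Proteasome subunits did so in 15 of 36, or 41.7% (25.5 to 59.2), against 57.7%. Both intervals reached the share of all genes. With peaks of log2 enrichment of at least 2 they did not: the E2 list stood at 16.7% (5.64 to 34.7) and the proteasome list at 25.0% (12.1 to 42.2), against 45.2% of all genes. That 45.2% was not matched for abundance. The median levels of the E2 and proteasome lists were 23.5 and 39.5 FPKM, against 10.9 FPKM over all genes, and the part of abundance was not tested.

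The m6A machinery itself carried peaks. Of 11 writer genes 8 had a peak, or 72.7% (interval 39.0 to 94.0), against 62.1% of genes of the same abundance and span, so the small list cannot be set apart from them. METTL14, the RNA-binding partner of the catalytic subunit, had 28.1, 27.2 and 28.2 FPKM and 4 peaks. Its highest reached 6.75 and was classed at the start codon, while its peak at the stop codon stood at 1.03. RBM15, an adaptor that guides the complex, had 25.5, 24.1 and 22.6 FPKM and 6 peaks, all in other exons, between 0.99 and 3.99. WTAP, the scaffold of the complex, had 57.6, 57.6 and 58.9 FPKM and 1 peak of 4.06 at the stop codon. METTL3, the catalytic subunit, had 3.87, 5.34 and 4.35 FPKM and no listed peak, and neither had METTL5 or PCIF1, which methylate other RNA positions.

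Of 16 genes for erasers and readers, 13 carried a peak, or 81.3% (54.4 to 96.0), against 69.5%. YTHDC1, the nuclear reader, had 25.6, 24.1 and 23.3 FPKM and 3 peaks, the highest of 6.13 at the start codon. YTHDF3, a cytoplasmic reader, had 10.6, 9.59 and 10.02 FPKM and 4 peaks, the highest of 6.12 in an exon. YTHDF2, the reader linked to mRNA decay, had 9.16, 9.33 and 7.68 FPKM and 2 peaks of at most 3.52. The erasers differed in this map: FTO had 5.07, 5.15 and 4.73 FPKM and 1 peak of 2.41, and ALKBH5, at 123, 128 and 131 FPKM, had none. ELAVL1 and YTHDC2 were the other list members without a peak.

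Genes specific to the oocyte were abundant and carried peaks of low enrichment. Of 34 oocyte and maternal effect genes 20 had a peak, or 58.8% (interval 40.7 to 75.4), against 60.9% of genes of the same abundance and span. With peaks of log2 enrichment of at least 2 the share was 26.5% (12.9 to 44.4), wholly below the 45.2% of all genes at that setting. The median log2 enrichment of their 34 peaks was 1.21, beside 2.56 over all genes, and their median abundance was 130 FPKM, beside 10.9. In the highest abundance decile, which holds that level, the median over the peaks of all genes was 1.61 (quartiles 1.02 and 2.54). The part of abundance in the low share and the low enrichment of the list was not tested. Among secreted factors, GDF9, which acts on the surrounding granulosa cells, had 158, 163 and 170 FPKM and 1 peak of 2.99 at the stop codon. Its partner BMP15 had 314, 327 and 331 FPKM and 1 peak of 2.04 at the start codon. Among kinases, WEE2, which holds the meiotic arrest, had 563, 584 and 601 FPKM and 1 peak of 3.22 at the stop codon. OOEP, a member of the subcortical maternal complex, had only 15.5, 14.7 and 14.8 FPKM and the highest peak of the list, at 4.36 in the 3′ UTR.

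Several of the most abundant oocyte transcripts had no listed peak. OOSP2, a secreted oocyte protein, had 517, 504 and 516 FPKM. KHDC3L, of the subcortical maternal complex, had 307, 310 and 320 FPKM, and DPPA3, which in mice protects maternal DNA methylation, had 267, 288 and 284 FPKM. The zona pellucida genes, which encode the egg coat, were divided: ZP4 (196, 208 and 206 FPKM) carried 1 peak of 1.29, and ZP2 (253, 257 and 252 FPKM) and ZP3 (243, 233 and 243 FPKM) carried none. Their levels overlapped those of oocyte genes with a peak.

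Meiosis and cell cycle genes gave 45 of 72 with a peak, or 62.5% (50.3 to 73.6), against 59.3%. SGO2, which protects cohesion at meiotic centromeres, had 24.1, 22.5 and 21.2 FPKM and the highest peak, at 6.21. MOS, the kinase that keeps the egg arrested at metaphase II, had 355, 345 and 336 FPKM and 2 peaks of at most 2.33. CCNB1, cyclin B1, had 1456, 1478 and 1478 FPKM and no listed peak, and AURKA (760, 764 and 739 FPKM) and PLK1 (93.5, 89.1 and 91.6 FPKM) had none either. These mitotic and meiotic regulators were far above the median abundance and lacked a peak in the same list in which less abundant members had one.

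Genes that control mRNA tails and decay carried peaks in 47 of 68, or 69.1% (56.7 to 79.8), against 65.2%. The poly(A) polymerase TENT4B had the highest peak, at 5.97, with 10.3, 14.4 and 10.8 FPKM. The helicase DDX6 and the nuclease SMG6 carried 6 peaks each. BTG4, in mice an adaptor of deadenylation in maternal mRNA clearance, had 1925, 1934 and 1975 FPKM and no listed peak, nor did CNOT7, a deadenylase subunit, or CPEB1, which binds the cytoplasmic polyadenylation element. Among factors that build and use mRNA, splicing factors had a peak in 52 of 80 genes (65.0%) and translation factors in 31 of 48 (64.6%), close to the shares of genes of the same abundance and span, 59.9% and 58.9%. With peaks of log2 enrichment of at least 2 they stood below the 45.2% of all genes, at 41.2% and 37.5%, with intervals that reach it, and the decay list, at 51.5% (39.0 to 63.8), no longer had an interval above it. That 45.2% was not matched for abundance. The splicing, translation and decay lists had median levels of 38.7, 37.8 and 26.5 FPKM, against 10.9 FPKM over all genes.

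Regulators of development and signalling carried peaks at a slightly higher rate. Of 70 developmental transcription factors 48 had one, or 68.6% (56.4 to 79.1), against 54.8%, and of 88 signalling genes 64 had one, or 72.7% (62.2 to 81.7), against 66.8%. With peaks of log2 enrichment of at least 2 the transcription factors stood at 52.9% (40.6 to 64.9), an interval that holds the 45.2% of all genes. ZEB1, a repressor of epithelial genes, had 6.79, 6.89 and 7.95 FPKM and 7 peaks, the highest of 7.44. LATS1, a kinase of the Hippo pathway, had 8.21, 7.36 and 6.38 FPKM and 6 peaks, the highest of 6.91. BMPR2, a receptor for BMP15, carried 8 peaks of at most 4.03. STAT3 (381, 386 and 395 FPKM), beta-catenin (CTNNB1; 83.7, 90.0 and 90.6 FPKM) and YAP1 (58.3, 58.0 and 51.8 FPKM) had no listed peak. Genes of the motor proteins and tubulins carried peaks in 47 of 65, or 72.3%, against 61.2%, with 8 in KIF15 and none in KIF2C or TUBA1B; with peaks of FDR below 0.05 the share was 56.9% (44.0 to 69.2), beside 46.0%. RAB GTPases carried peaks in 27 of 44, or 61.4%, against 60.2%. Nuclear pore and import genes carried them in 29 of 49, or 59.2%, against 71.0%, with 7 each in RANBP2 and NUP153. With log2 enrichment of at least 2 their share was 30.6% (18.3 to 45.4), an interval that holds the 45.2% of all genes. That 45.2% was not matched for abundance, and the nuclear pore list had a median level of 27.3 FPKM, against 10.9 FPKM over all genes.

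Nuclear genes of the respiratory chain and ribosomal protein genes carried few peaks. Of 76 nuclear genes of the respiratory chain 14 had one, or 18.4% (interval 10.5 to 29.0), against 47.4% of genes of the same abundance and span. Of 82 cytosolic ribosomal protein genes 17 had one, or 20.7% (12.6 to 31.1), against 46.0%, and of 74 mitochondrial ribosomal protein genes 27, or 36.5% (25.6 to 48.5), against 51.5%. With peaks of log2 enrichment of at least 2 the first 2 shares were 11.8% and 10.98%, beside 45.2% of all genes. That 45.2% was not matched for abundance. The 2 lists had median levels of 12.6 and 33.7 FPKM, against 10.9 FPKM over all genes. ATP5IF1, an inhibitor of the ATP synthase, had 239, 234 and 220 FPKM and no peak, and the acidic ribosomal protein gene RPLP1 had 225, 211 and 226 FPKM and none. The respiratory member with the highest peak, COX6A1, reached 3.99 with 14.6, 14.6 and 16.0 FPKM. Ribosomal protein genes have many processed copies, so reads at single members are uncertain. Solute carriers, membrane transporters of many substrates, were also low with 71 of 172, or 41.3% (33.8 to 49.0), against 51.4%; among genes of at least 5 FPKM they reached 53.8% (43.1 to 64.2), an interval that holds the 62.4% of all such genes. SLC25A51, a mitochondrial carrier for NAD, held one of the map's highest peaks, at 7.38.

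Histone genes had the lowest share among the lists of protein-coding genes. Of 57 genes 6 carried a peak, or 10.5% (3.96 to 21.5), and none carried more than 1. Among genes of the same abundance decile and span tercile the share was 45.9%, but the shortest tercile reaches 10.7 kb. In the shortest decile of span, up to 1.60 kb, it was 15.8% (13.7 to 18.0), within the histone interval. That decile was 46.1% protein coding, with a median of 5.92 FPKM. With peaks of log2 enrichment of at least 2 the histone share was 3.51% (0.428 to 12.1), beside 45.2% of all genes, which was not matched for abundance. The histone genes had a median abundance of 110 FPKM and a median span of 0.767 kb. In the highest abundance decile, which holds that level, the median log2 enrichment over the peaks of all genes was 1.61. The part of abundance was not tested. H2BC18 had 8588, 7165 and 6661 FPKM and H4C1 had 3793, 3872 and 3853 FPKM, both with no listed peak. Of the 6 histone genes with a peak, 4 encode linker histones of the H1 family, the highest of them at 1.51. H3-3A, a replication-independent H3.3 gene, had 34.7, 38.4 and 34.9 FPKM and the highest peak of the list, 4.56 at the stop codon. In somatic cells the mRNAs of replication-dependent histones end without a poly(A) tail, and these libraries were selected for such tails; the part of that selection in the low share was not tested.

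Mitochondrially encoded mRNAs carried peaks in 8 of 13 genes, or 61.5% (31.6 to 86.1), against 44.9% of genes of the same abundance decile and span tercile. That match is coarse, since the list had a median span of 0.781 kb and the shortest tercile reaches 10.7 kb. In the shortest decile of span, up to 1.60 kb and 46.1% protein coding, 15.8% of all genes carried a peak. With peaks of log2 enrichment of at least 2 the share of the mitochondrial list was 30.8% (9.09 to 61.4), an interval that holds the 45.2% of all genes. That 45.2% was not matched for abundance, and the list had a median level of 171 FPKM, against 10.9 FPKM over all genes. ND6, the only one transcribed from the light strand, had 644, 604 and 589 FPKM and a peak of 6.50 over its whole 528 bases on the minus strand. The next highest were ND2 at 3.73 and ND1 at 3.01, and COX1, at 684, 687 and 696 FPKM, had none. The peak of ND6 was thus far above the others of the list. The labels do not say whether the authors' counting kept the strands apart, and ND6 lies opposite other mitochondrial transcripts.

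Carrying genes most often held 1 peak. Of the 6705 genes 3148 had 1 peak (47.0%), 1712 had 2, 882 had 3 and 514 had at least 5. Those 514 genes held 3208 peaks, or 22.6% of the map. Their median span was 82.8 kb and their median abundance 19.0 FPKM, compared with 21.9 kb and 9.40 FPKM for genes with 1 peak. Abundance hardly differed beyond 3 peaks, with medians of 17.5 FPKM at 3, 18.5 at 4 and 19.0 at 5 or more, whereas the median span went on increasing, at 39.2, 52.9 and 82.8 kb.

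**Figure D3:**
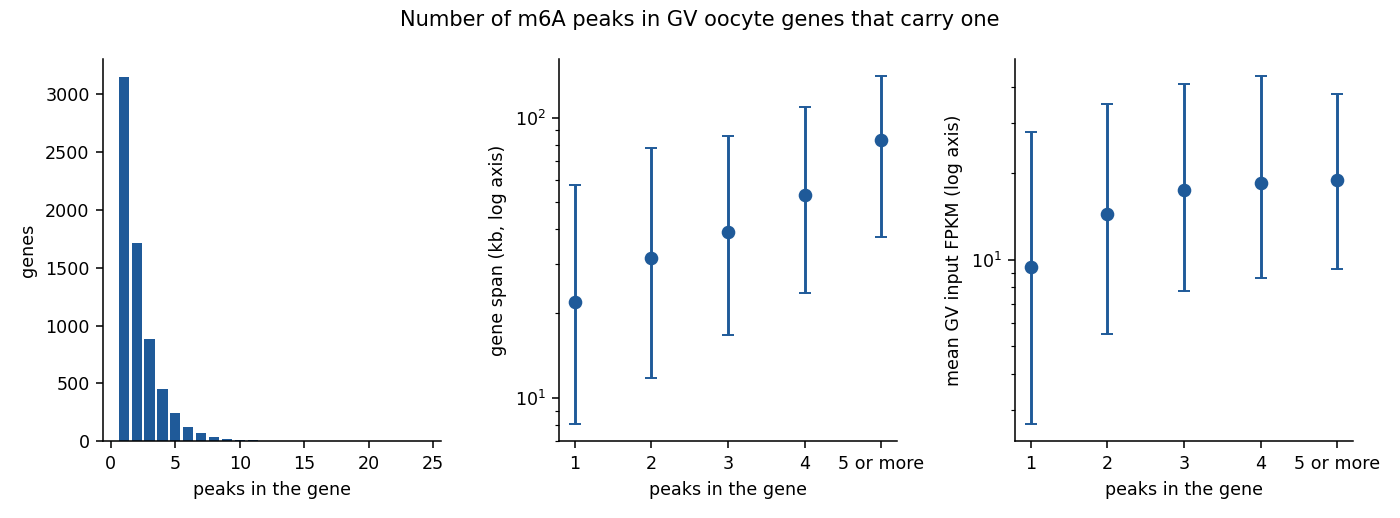
Number of genes by number of peaks (left, linear axis), and span (kb, middle, log axis) and mean GV input abundance (FPKM, right, log axis) by number of peaks; points are medians and bars quartiles. The median span goes up with each class to 82.8 kb at 5 or more peaks, while the median abundance stays between 17.5 and 19.0 FPKM from 3 peaks on.

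The genes with the most peaks encode very large proteins. NEB, nebulin, a giant protein of the muscle thin filament, had 22.5, 23.4 and 24.6 FPKM and 24 peaks over 217 kb, 20 of them with an FDR below 0.05 and the highest at 4.63. SYNE2, which ties the nucleus to the cytoskeleton, had 47.9, 49.9 and 48.4 FPKM and 20 peaks, with a highest of 4.41. ALMS1, a centrosomal protein, FAT1, a giant cadherin, and PCLO, a scaffold of the synapse, had 16 peaks each. PCLO stood apart in abundance, with 4.93, 4.39 and 4.195 FPKM, yet its highest peak, 5.71, was above those of the other 4. CHD6, ZFHX3 and KMT2C followed with 12 peaks, and 10 genes had 11, among them JMJD1C, ASH1L, KMT2E and ZNF292. All 24 peaks of NEB and all 20 of SYNE2 were classed as exonic, with none at a start or stop codon.

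**Figure D4:**
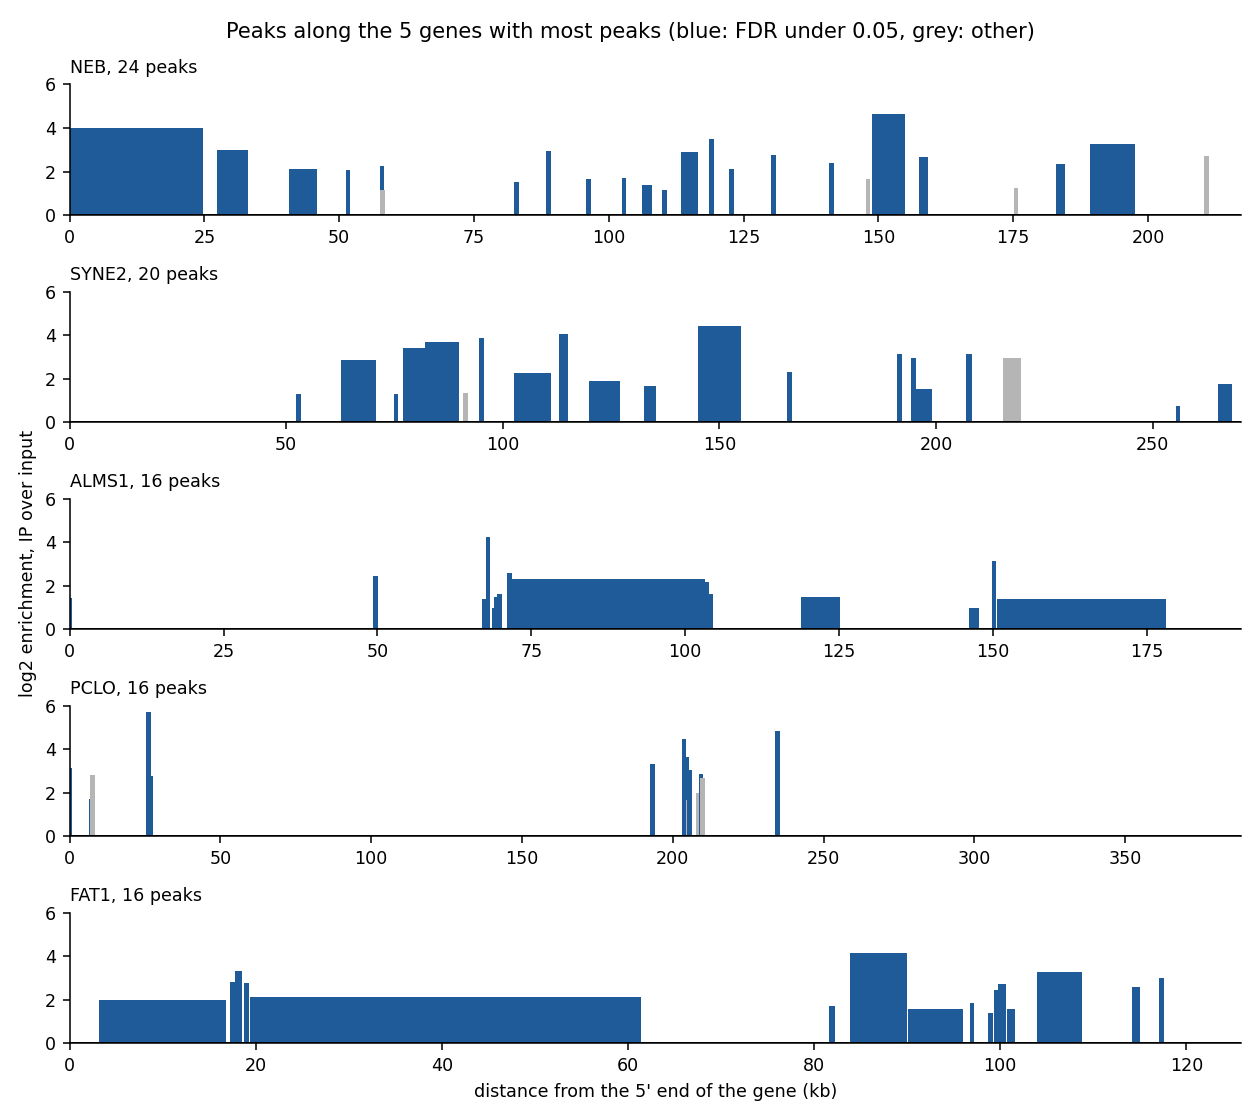
Peaks along the 5 genes with most peaks, as distance from the 5′ end of the gene (kb, horizontal axis) and log2 enrichment of IP over input (vertical axis). Bars run over each peak's span and narrow ones are widened to remain visible; blue bars have an FDR below 0.05 and grey bars do not, and the highest bar is 5.71, in PCLO.

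Within a gene the peaks differed widely in enrichment. In the 3557 genes with at least 2 peaks, the highest and the lowest peak lay 1.43 apart on the log2 scale in the median gene (quartiles 0.69 and 2.33) and 6.15 apart at most. The median of the highest peak was 3.35 and of the lowest 1.71, around the 2.70 of genes with a single peak. The highest of several values tends to exceed a single value, so these medians are not compared further.

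Over all peaks the log2 enrichment of IP over input, as the authors' deposited table gives it, ran between 0.16 and 8.11 with a median of 2.62 (quartiles 1.75 and 3.26). An FDR below 0.05 was given for 10791 peaks, or 75.9%, and the largest p-value listed was 0.0490. Only 977 peaks (6.87%) were below 1, and 425 peaks in 398 genes were at least 5. Many values recur: 788 peaks shared the value 2.56, and 11.3% of those had an FDR below 0.05. The 10 most frequent values covered 28.5% of peaks.

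Enrichment was lower in abundant transcripts. The Spearman correlation between a peak's log2 enrichment and its gene's abundance was -0.34 over the 13601 peaks, and that with gene span was -0.02. The median was 2.82 in the lowest abundance decile, 2.94 in the third, 2.35 in the eighth, 2.00 in the ninth and 1.61 in the highest. The low edge of what was listed moved with it: the 5th percentile was 2.04 in the lowest decile and 0.49 in the highest, and the share of peaks with an FDR below 0.05 was 37.4% and 95.6%. The weakest listed peaks were thus lower in abundant genes, and the part of this in the lower medians was not tested.

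**Figure D5:**
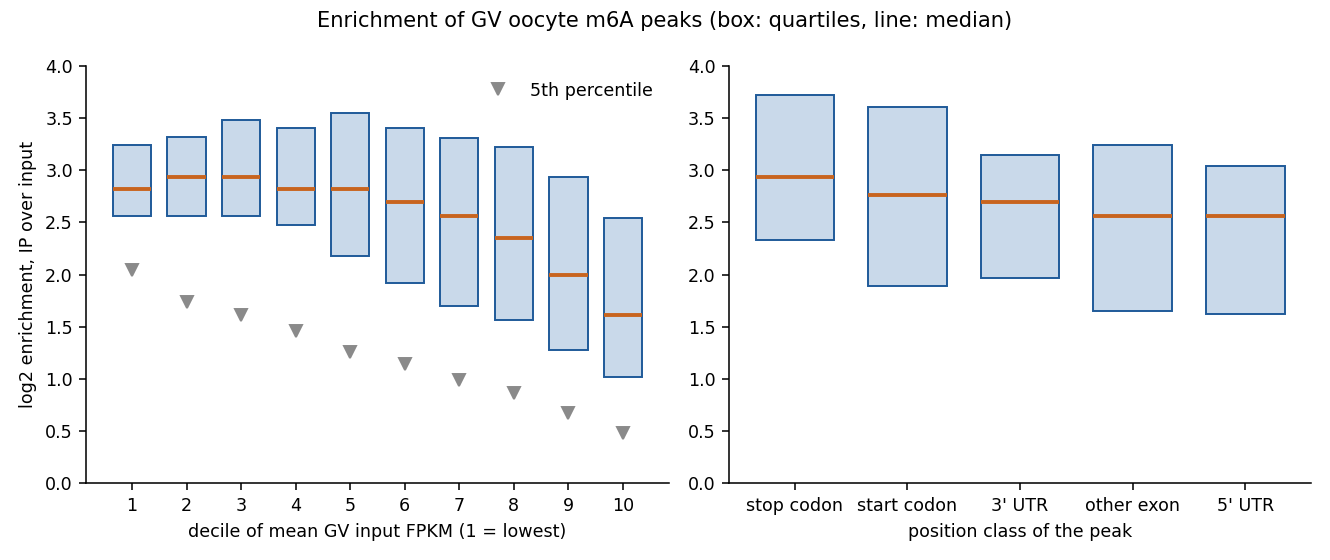
Log2 enrichment of peaks (IP over input, vertical axis) by decile of mean GV input abundance (left) and by position class (right). Boxes are quartiles, lines are medians and triangles 5th percentiles; the median is 2.82 in the lowest decile and 1.61 in the highest, and 2.94 at stop codons, the highest of the 5 classes.

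The 10 genes with the highest peaks were of modest abundance. After ZNF184 came MYSM1, a deubiquitinase of histone H2A, at 7.77, DAXX at 7.64, TRIM41, a ubiquitin ligase, at 7.50, and TNRC6C, a partner of Argonaute in microRNA silencing, at 7.46. ZEB1 reached 7.44, SLC25A51 7.38, ZNF445 7.33, C25H16orf72 7.30 and ZC3H12C 7.29. SLC25A51 had 55.1, 58.3 and 57.8 FPKM, and the others averaged under 17 FPKM each. Their peaks differed in extent: that of ZEB1 covered 420 bases on chromosome 13 from 33773152 to 33773571, and that of ZC3H12C ran over 54335 bases on chromosome 15 from 20173026 to 20227360.

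Among genes with a symbol, the most abundant with a peak looked different. UBB, a polyubiquitin gene, had 2450, 2547 and 2565 FPKM and 1 peak of 0.41. LEO1, of the PAF1 transcription complex, had 1520, 1451 and 1507 FPKM and 2 peaks of at most 1.956. EZR, which links the cell cortex to actin, had 912, 894 and 900 FPKM and 3 peaks of at most 1.07, and UHRF1, a partner of DNA methyltransferase 1, had 741, 725 and 741 FPKM and 3 peaks of at most 1.09. LIG1, a DNA ligase, had 873, 884 and 871 FPKM and 3 peaks, the highest at 2.67, which was the highest among the 10 most abundant such genes. YBX1, an mRNA-packaging protein, had 707, 704 and 765 FPKM and 1 peak of 2.56.

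By position, 9333 peaks (65.6%) were classed in exons away from the codons and UTRs named by the other classes, 1996 (14.0%) in 3′ UTRs, 1322 (9.30%) at stop codons, 839 (5.90%) at start codons and 616 (4.33%) in 5′ UTRs. Only 4 peaks were intronic and 112 lay in exons of non-coding genes. The classes are the authors', and the length of sequence behind each class was not available to scale them. Peaks at stop codons had the highest median enrichment, 2.94, followed by start codons at 2.76, 3′ UTRs at 2.70, and other exons and 5′ UTRs at 2.56 each. This order did not hold among short peaks. Peaks at stop codons had a median extent of 716 bases, compared with 181 in 3′ UTRs, and among peaks of at most 250 bases the medians were 2.56 in 3′ UTRs, 2.41 in 5′ UTRs, 2.32 at stop codons, 2.26 at start codons and 2.14 in other exons. Peaks of at least 4 made up 18.4% of those at stop codons and 16.9% of those at start codons, compared with 10.01% in other exons, 5.46% in 3′ UTRs and 5.36% in 5′ UTRs. An FDR below 0.05 was given for 82.7% of peaks at stop codons and 86.5% at start codons. For other exons, 5′ UTRs and 3′ UTRs these shares were 78.1%, 69.0% and 59.6%. The median of 2.56 over all extents in other exons and 5′ UTRs is the value that 788 peaks shared.

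Over peaks of all extents, stop codons had the highest median enrichment in each tercile of abundance, tied with start codons at low abundance. In the most abundant tercile the median was 2.80 at stop codons (602 peaks) and 1.84 in other exons (3811 peaks). In the middle tercile it was 3.14 and 2.70. In the least abundant tercile stop and start codons had 3.04 each and other exons 2.94. The gap between stop codons and other exons was therefore widest among abundant transcripts. The low edge of listed peaks also moved with abundance. In other exons the lower quartile was 2.56 in the least abundant tercile and 1.18 in the most abundant, and at stop codons 2.70 and 1.94. The part of that edge in the gap was not tested. Among the 1845 genes with at least 3 peaks, the strongest peak was at the stop codon in 185, or 10.03%, while 6.04% of all their peaks were there; for other exons these shares were 64.9% and 72.0%. The part of peak extent in these differences was not tested.

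The genes with the highest peaks show what each class holds. At stop codons they were ZNF184, SLC25A51 and DNAJB4, a heat shock protein, whose peak of 7.24 covered 2361 bases. At start codons they were C25H16orf72, PRPF4B, a kinase of splicing, at 7.20, and CDK12, a kinase of transcription elongation, at 7.09. In 3′ UTRs they were DLX6, a homeobox gene, at 6.43, ZNF462 at 6.11 and, tied at 6.03, EYA1 and NEXN, which binds actin. In 5′ UTRs they were SCNN1A, a sodium channel subunit, at 6.83, NT5C3B at 6.20 and SUPT7L at 5.95, and SCNN1A and NT5C3B were of low abundance, with 2.46, 2.65 and 2.07 FPKM and 2.50, 2.67 and 3.12 FPKM. In exons of genes annotated as non-coding the highest peak, at 4.99, lay in a gene with no symbol; among genes with a symbol the highest were a locus named PKD1 and listed as a pseudogene, at 4.32, a locus named CEBPG and listed as a long non-coding RNA, at 4.104, and 7SK at 3.49. The intronic peak with an FDR below 0.05 was that of TEX14, which forms bridges between male germ cells in mice, at 1.73. Peaks in 3′ UTRs and 5′ UTRs did not reach the heights of those at codons or in other exons.

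A peak was listed by its outer ends on the genome, so that a peak spanning introns was long. The median extent was 540 bases and the longest 309134. Of 4841 peaks of at most 250 bases, which can be placed within their gene, 33.4% lay within 1 kb of the gene's 3′ end and 15.9% within 1 kb of its 5′ end. The median place was 0.858 of the way along the gene. For the 3791 short peaks of genes over 10 kb these values were 28.1%, 11.6% and 0.896. Peaks this short were 1361 of 1996 in 3′ UTRs and 353 of 616 in 5′ UTRs. They were 2637 of 9333 in other exons, 303 of 1322 at stop codons and 136 of 839 at start codons. Keeping short peaks thus favoured UTRs, and the part of that choice in these places was not tested. The short peaks near the 3′ end had a median log2 enrichment of 2.56, those near the 5′ end 2.24 and the others 2.16. All 14201 peaks of genes in the abundance table were listed on the strand of their gene.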

How the data were processed

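Poly(A) RNA of bovine GV oocytes was sequenced before (input) and after (IP) m6A immunoprecipitation, in 3 libraries each. The deposited abundance table gives FPKM per gene and library, and its 3 other library columns were not used. The authors' peak table gives, per the file headers, a log2 enrichment of IP over input, a p-value and an FDR per peak, with 1 list for the stage. Per the submitters' processing notes the tools were fastp 0.19.4, HISAT2 2.0.4, StringTie 2.1.2 and HOMER 4.10, among others. The genome build, the annotation, the peak caller and how libraries were combined for peak calling are unknown here: not given in the sources used. Peak starts count from 0 in the file and are printed from 1.

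Genes of at least 1 FPKM on average over the GV input libraries were kept and scored for carrying a listed peak, in deciles of abundance and of span and in gene lists, with exact (Clopper-Pearson) 95% intervals (Python 3.11.15, pandas 2.3.3, SciPy 1.17.1). The intervals cover counting error only. Named genes, all with a symbol, were the 10 with the highest peaks, the 10 with most peaks, the 10 most abundant with and without a peak, the 5 longest without and the 5 shortest with a peak at 10 FPKM or more, the 3 highest of each position class (FDR below 0.05 and at least 1 FPKM), and list members. The members and lists were chosen with earlier results of these data known. The counting was tested on simulated data. Alternatives were stricter peaks, other gene filters, merged peaks and each input library left out. No test was made, since the map has no replicate values. Sequencing depth is unknown, since the tables give no counts.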

Additional observations from a re-analysis of the deposited data

How the results depend on the processing

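The share of genes with a peak was 46.0% with peaks of FDR below 0.05, 45.2% with peaks of log2 enrichment of at least 2, 62.4% among genes of at least 5 FPKM, 51.2% among genes above 0 in all 3 input libraries and 58.2% among protein-coding genes, beside the 54.9% reported. The highest minus the lowest abundance decile, 37.5 percentage points, became 52.0 with FDR below 0.05, 11.2 with log2 enrichment of at least 2, 10.3 among genes of at least 5 FPKM and 48.1 among genes above 0 in all libraries. The longest minus the shortest span decile, 57.0 points, became 48.9 with FDR below 0.05, 51.1 with log2 enrichment of at least 2 and 36.8 among protein-coding genes; short non-coding genes fill much of the shortest decile, as the share of protein-coding genes there shows. Carrying genes of at least 1 FPKM with at least 2 peaks, 56.0%, became 51.5% with FDR below 0.05, 44.0% with log2 enrichment of at least 2 and 59.4% among genes of at least 5 FPKM. Peaks at stop codons or in 3′ UTRs, 23.3% of the map, were 21.2% and 26.2% under the 2 stricter sets of peaks. The lowest correlation between input libraries, 0.984, was 0.989 among genes above 0 in all libraries and 0.988 among protein-coding genes. Where no cause is named, the cause was not tested.

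Leaving out each input library gave 54.9% to 55.0% of genes with a peak, abundance differences of 37.1 to 38.1 points, span differences of 56.5 to 57.3 points, 56.0% of carrying genes with at least 2 peaks, 17 lists above all genes and lowest correlations of 0.984 to 0.986. The number of lists above all genes ran between 12, with log2 enrichment of at least 2, and 18. Of 206 single list shares under an alternative, 21 left their interval, 15 of them with log2 enrichment of at least 2, and none whose interval lay to one side of all genes crossed to the other. Span as summed exon length was not run, because no annotation of the files' build was used here. No paired analysis was possible because the stage has 1 peak list and its results come from no test. Depth is unknown, so a missing peak in a gene of low abundance may lie below what could be listed.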
